A study of Homo sapiens with 16 samples.

Results

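The RNAs described here are the products of the mitochondrial genome: the 37 genes, of 62069 in the deposited count table, whose symbol begins with MT-. They are 13 mRNAs, 2 rRNAs and 22 tRNAs, and the 3 classes are described apart. Membership followed the gene symbol and used no measured value. The low-count filter passed all 13 mRNAs, both rRNAs and 13 of the 22 tRNAs, so 28 members entered the tests. The other 9 tRNAs had between 0 and 12 counts in any library.

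The study profiled RNA of IMR90 ER:RAS cells in 16 libraries, 4 in each of 4 groups. IMR90 cells are human lung fibroblasts. ER:RAS is a fusion of oncogenic RAS with an oestrogen receptor domain, which 4-hydroxytamoxifen (4OHT) switches on, and the cells then become senescent. EV cells carry an empty vector and are labelled non-senescent. EV_4OHT cells carry the empty vector and were treated with 4OHT, and are labelled senescent. The shAHCY_2 and shAHCY_4 groups carry a hairpin against AHCY, each a different one by its name, and were also treated with 4OHT. The protocol gives 100 nM 4OHT, and the labels give day 6 and passage 15 for all samples. All 4 groups hold the ER:RAS fusion, and no cells without the fusion received 4OHT, so effects of 4OHT itself and of RAS cannot be told apart. No group carries a hairpin against another target, and no hairpin group lacks 4OHT. Loss of AHCY, carrying a hairpin at all and a changed response to 4OHT therefore cannot be told apart. No label tells if replicates are separate cultures. The p-values therefore reflect the spread among these libraries alone, and that spread may be technical.

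Human mitochondrial DNA is a small circle transcribed from both strands into long precursors. The heavy-strand precursor holds both rRNAs, most mRNAs and most tRNAs, and the light-strand precursor holds MT-ND6 and the remaining tRNAs. Most mRNAs and rRNAs are flanked by tRNAs, and cutting out the tRNAs releases them. The mRNAs encode core subunits of respiratory complexes I, III, IV and V, the rRNAs build the mitochondrial ribosome, and every other protein of these machines is imported from nuclear genes. AHCY hydrolyses S-adenosylhomocysteine, the by-product of every methylation by S-adenosylmethionine and an inhibitor of many methyltransferases. Mitochondrial tRNAs and rRNAs carry methyl groups from such enzymes. One of them is TRMT10C, a subunit of the enzyme that also cuts the precursor at the start of each tRNA, which methylates the base at position 9 where this is A or G. Methylation itself was not measured in these libraries.

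The tRNAs whose values passed the test against EV_4OHT in at least 1 hairpin group are shown here because they include the largest log2 changes among the members. The sequences come from the GENCODE 29 transcripts, are written 5′ to 3′ as DNA letters on the strand of the tRNA, and have position 9 and the anticodon in capitals. Position 9 is A in 14 and G in 5 of the 22 tRNAs, together 19 of 22, and MT-TS1 in the list has C there. The first 7 are encoded on the light strand and MT-TV on the heavy strand.
MT-TQ: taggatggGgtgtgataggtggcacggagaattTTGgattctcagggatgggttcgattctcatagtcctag
MT-TA: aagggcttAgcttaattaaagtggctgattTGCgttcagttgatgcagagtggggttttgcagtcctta
MT-TN: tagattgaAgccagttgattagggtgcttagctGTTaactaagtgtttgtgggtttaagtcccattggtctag
MT-TC: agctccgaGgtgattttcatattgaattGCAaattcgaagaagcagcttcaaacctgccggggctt
MT-TY: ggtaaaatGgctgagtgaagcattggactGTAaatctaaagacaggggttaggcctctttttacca
MT-TS1: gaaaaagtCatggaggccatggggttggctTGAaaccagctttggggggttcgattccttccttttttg
MT-TE: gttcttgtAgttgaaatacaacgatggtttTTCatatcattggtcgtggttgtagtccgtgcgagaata
MT-TV: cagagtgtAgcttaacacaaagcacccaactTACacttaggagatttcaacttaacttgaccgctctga

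Library totals ran from 8236199 to 18235787 counts. AHCY was at 102.2 to 124.1 CPM (counts relative to library size, scaled by TMM factors) in EV, 154.1 to 172.9 in EV_4OHT, 12.1 to 22.8 in shAHCY_2 and 13.4 to 18.0 in shAHCY_4, as the labels state for the hairpins. All 6 fibroblast markers were detected, with a summed level of 9418.4 to 11102.7 CPM in EV, 4554.1 to 4727.6 in EV_4OHT, 4631.3 to 5113.8 in shAHCY_2 and 4475.8 to 5119.5 in shAHCY_4. Of the 6, 5 were lower in EV_4OHT than in EV, none moved past the threshold in shAHCY_2 against EV_4OHT, 1 was higher and 1 lower in shAHCY_4, and their part in the results was not tested. The markers of epithelial, endothelial and immune cells summed to at most 3.81, 2.0 and 1.13 CPM. Library shAHCY_2 replicate 59 stood apart: genes rich in GC were lower in it than in the average library (Spearman's rho of deviation with GC = -0.56). The rho was -0.286 in EV replicate 51 and -0.123 to 0.298 in the other 14. The mitochondrial mRNAs and rRNAs have 39.6 to 47.7% GC, against a median of 47.5% over all tested genes, and the results below that change without replicate 59 are named. Tests are from 1 edgeR quasi-likelihood fit over the 13526 genes that passed the filter, with Benjamini-Hochberg adjustment and a threshold of 0.05. In bulk RNA, fewer cells of a kind and less RNA per cell cannot be told apart.

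With 4OHT in vector cells, the mitochondrial mRNAs rose, and the change of the large rRNA did not pass the test. The mRNAs took 2.18, 2.14, 2.10 and 2.26% of the counts in the EV libraries and 3.15, 3.22, 3.16 and 3.13% in the EV_4OHT libraries. The difference of means was 0.995 percentage points, and the 2 groups did not overlap (p = 0.0286 by a two-sided exact permutation test, adjusted 0.0429). With 4 libraries a side no smaller p can be reached, and p-values were adjusted over the 36 comparisons of 6 measures. Where 1 library is left out below, the exact p was 0.0286 at the lowest. A pass can then be lost after adjustment although the groups still do not overlap. Groups without overlap cannot come to overlap when a library is left out, so their staying apart is no check. The rRNAs took 3.33 ± 0.179% of the counts in EV and 3.24 ± 0.074% in EV_4OHT (SD, n = 4), a difference of -0.097 points that did not pass (exact permutation p = 0.4, adjusted 0.436). With TMM-scaled library sizes as the denominator that difference was 0.157. The ratio of rRNA to mRNA counts was therefore lower in EV_4OHT, at 0.983 to 1.06 against 1.47 to 1.59 in EV, without overlap (exact permutation p = 0.0286, adjusted 0.0429). Because cDNA is primed on poly(A), rRNA shares and ratios here are of counts and need not equal those of RNA amounts.

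**Figure D1:**
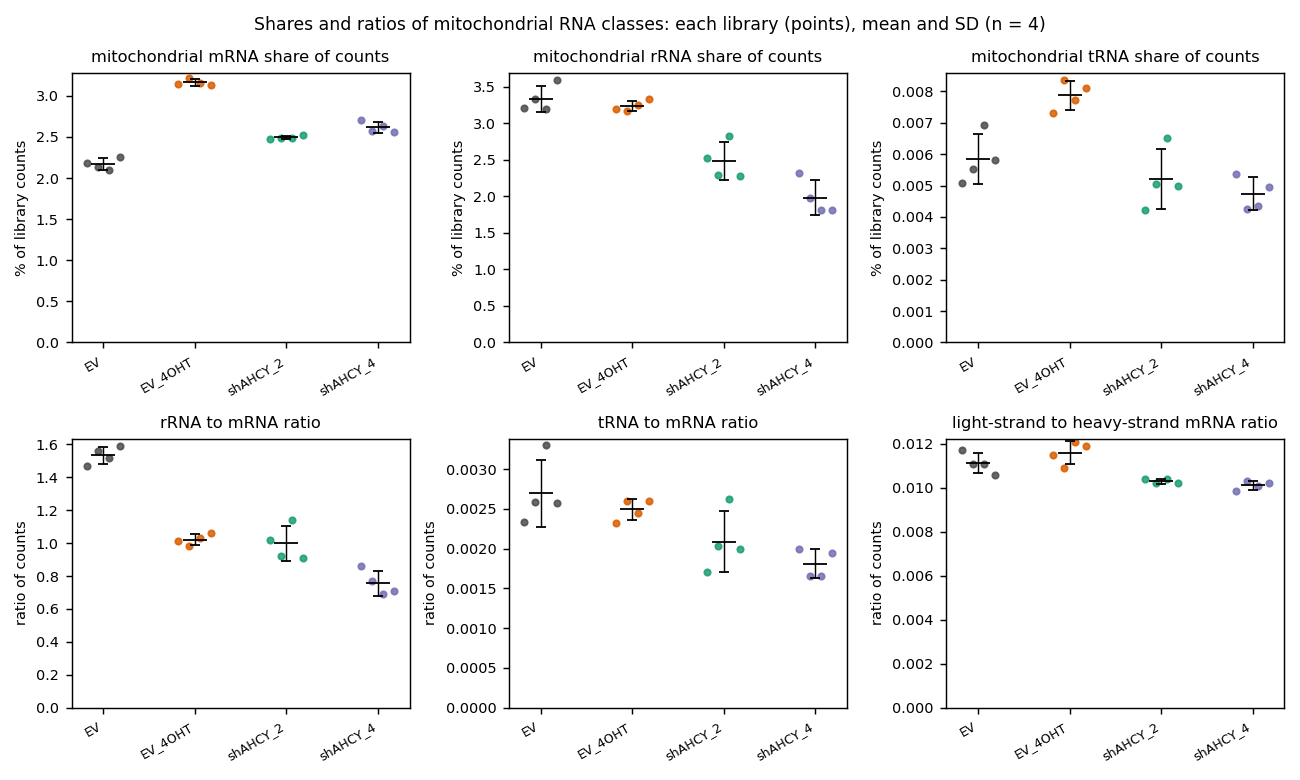
Share of each library's counts, in percent, on mitochondrial mRNAs, rRNAs and tRNAs (upper row), and ratios of counts between classes and strands (lower row), for the 4 groups; points are libraries, bars the mean and SD (n = 4). The mRNA share lies between 3.13 and 3.22% in EV_4OHT, above every library of the other 3 groups, and the rRNA share lies between 1.81 and 2.32% in shAHCY_4.

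All 13 mRNAs were called higher in EV_4OHT than in EV, where 53.5% of all tested genes were called, 26.7% higher and 26.8% lower. Their median log2 fold change was 0.69, against -0.02 over all tested genes. The 7 mRNAs of complex I, which oxidises NADH, had a median of 0.75. MT-ND2, which encodes one of its membrane subunits, was at 644.2, 633.5, 576.0 and 664.3 CPM in EV and at 1350.5, 1378.2, 1409.5 and 1368.7 in EV_4OHT. Every EV_4OHT library was above every EV library, and the log2 fold change was 1.13 ± 0.07 (SE; edgeR adjusted p = 1.05e-11), the largest among the mRNAs. MT-ND1, another membrane subunit, rose by 0.87 ± 0.08 (edgeR adjusted p = 6.05e-09). MT-ND4, the mRNA with the most counts, went from 4871.4 to 5270.5 CPM in EV to 8258.3 to 8727.5 in EV_4OHT, a log2 change of 0.75 ± 0.05. MT-ND3 (0.76 ± 0.15), MT-ND4L (0.69 ± 0.08), MT-ND6 (0.71 ± 0.06) and MT-ND5 (0.58 ± 0.06) also rose. MT-ND6 is the only mRNA read from the light strand, and its change lay within the range of those of the heavy-strand mRNAs.

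Outside complex I the increases ran from 0.42 to 0.75, and differences between complexes were not tested. MT-CYB, the cytochrome b of complex III, rose by 0.66 ± 0.05 on the log2 scale. Of the 3 mRNAs of complex IV, cytochrome c oxidase, MT-CO1 rose by 0.55 ± 0.08 and MT-CO2 by 0.55 ± 0.07. MT-CO3 had the smallest increase of the 13, at 0.42 ± 0.06 (edgeR adjusted p = 5.5e-06). MT-ATP6 and MT-ATP8, subunits of the ATP synthase, rose by 0.75 ± 0.06 and 0.55 ± 0.07. The groups did not overlap for any of the 13 mRNAs. The share of all tested genes without overlap is not given here, and 53.5% of them were called in this comparison.

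The 2 rRNAs differed from each other. MT-RNR1, the RNA of the small ribosomal subunit, was at 1427.6, 1556.8, 1470.2 and 1775.0 CPM in EV and at 2393.4, 2583.2, 2475.7 and 2437.8 in EV_4OHT. It rose by 0.67 ± 0.09 (edgeR adjusted p = 3.01e-06), within the range of the mRNAs. MT-RNR2, the RNA of the large subunit, was at 29198.0, 30200.8, 29376.9 and 32945.3 CPM in EV and at 30730.9, 30726.1, 30825.9 and 32073.5 in EV_4OHT. These groups overlap, and the log2 change was 0.03 ± 0.08 (95% interval -0.12 to 0.19; edgeR adjusted p = 0.767). MT-RNR2 counts were 18.6 to 20.5 times those of MT-RNR1 in EV and 11.9 to 13.2 times in EV_4OHT, a ratio that was not tested. MT-RNR2 made up 57.5 ± 0.643% of all mitochondrial counts in EV and 46.8 ± 0.907% in EV_4OHT (SD, n = 4). Both rRNAs are transcribed together, from neighbouring genes.

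**Figure D2:**
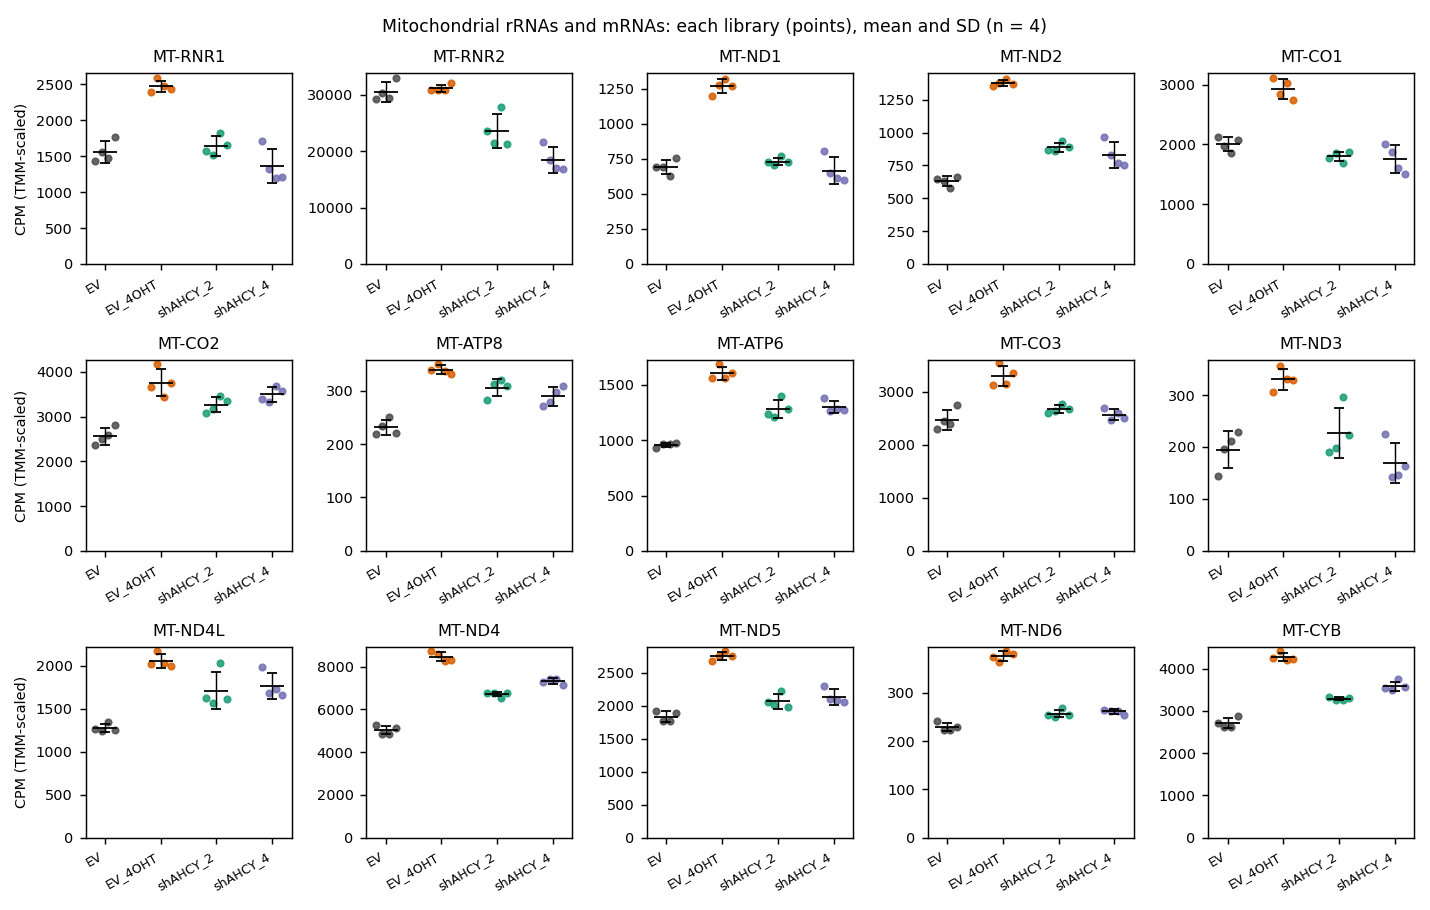
TMM-scaled CPM of the 2 rRNAs and 13 mRNAs in each library (points) with the mean and SD (bars, n = 4), in gene order, on axes that start at 0. For MT-ND2 the EV_4OHT libraries lie between 1350.5 and 1409.5 CPM, above all others, whereas for MT-RNR2 the EV and EV_4OHT libraries overlap and both hairpin groups lie below them.

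The tRNAs were few in counts. The method primes cDNA on poly(A) tails and mature tRNAs have none, so counts on a tRNA gene can come from uncut precursors or from fragments. The 22 tRNAs together took 0.00584 ± 0.000792% of the counts in EV and 0.00788 ± 0.000464% in EV_4OHT (SD, n = 4), without overlap (exact permutation p = 0.0286, adjusted 0.0429). Without any 1 of the EV_4OHT libraries this tRNA difference no longer passed (0.00188 to 0.00223 percentage points). The filter passed all 8 light-strand tRNAs and 5 of the 14 heavy-strand tRNAs. The light-strand tRNAs summed to 48.0 ± 6.81 CPM of library totals in EV and 68.0 ± 4.72 in EV_4OHT, and the heavy-strand tRNAs to 10.4 ± 1.68 and 10.9 ± 2.01. Library preparation by this method keeps no strand, so a count on a light-strand tRNA or on MT-ND6 can also come from the heavy-strand RNA that lies opposite it. The MT-CO1 mRNA is known to run on opposite MT-TS1, and the MT-ND5 mRNA opposite MT-ND6.

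In EV_4OHT 4 of the 13 tested tRNAs (30.8%) were called higher in edgeR, near the 26.7% of all tested genes, and all 4 are light-strand tRNAs. None was lower, also at an unadjusted p under 0.05, in DESeq2 and in limma-voom. MT-TS1, which reads UCN serine codons, was at 15.3, 13.2, 16.2 and 15.0 CPM in EV and at 28.1, 23.3, 25.6 and 19.6 in EV_4OHT. The groups did not overlap, and the log2 change was 0.69 ± 0.14 (edgeR adjusted p = 1.73e-04). MT-TE, the glutamate tRNA, went from 0.582 to 1.43 CPM in EV to 2.12 to 2.58 in EV_4OHT, a log2 change of 1.38 ± 0.31. MT-TQ, the glutamine tRNA (0.86 ± 0.31), and MT-TA, the alanine tRNA (0.70 ± 0.26), had overlapping groups. The call of MT-TQ was lost without any 1 of EV replicates 49 and 50 and EV_4OHT replicates 54 and 56 (0.68 to 0.82). That of MT-TA was lost with library totals alone (0.58), with no low-count filter (0.71) and without any 1 of EV replicates 50, 51 and 52 and EV_4OHT replicates 54 and 55 (0.58 to 0.69). The 5 tested heavy-strand tRNAs had changes of 0.01 to 0.64, none past the threshold.

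With a hairpin against AHCY in 4OHT-treated cells, mitochondrial RNAs of all 3 classes were lower than in EV_4OHT. Both hairpin groups were compared with the same 4 EV_4OHT libraries, which also enter the comparison with EV, so these results are not independent of each other. The mRNA share of counts was 2.48, 2.49, 2.49 and 2.52% in shAHCY_2 and 2.71, 2.57, 2.63 and 2.56% in shAHCY_4. Both groups lay below every EV_4OHT library, by 0.673 and 0.548 percentage points of the mean (exact permutation p = 0.0286, adjusted 0.0429, for each). Both also lay above every EV library, by 0.322 and 0.447 points, with the same p. The rRNA share was 2.52, 2.29, 2.83 and 2.28% in shAHCY_2 and 2.32, 1.98, 1.81 and 1.81% in shAHCY_4. These values lay below every library of both vector groups (exact permutation p = 0.0286, adjusted 0.0429, for each of the 4 comparisons). Leaving out 1 library ended some of these passes for shAHCY_2. Without shAHCY_2 replicate 57 no difference of its mRNA and rRNA shares from EV_4OHT (-0.669 and -0.766 points) or EV (0.326 and -0.863) passed. The adjusted exact permutation p was 0.0514 for each of these 4. The rRNA difference from EV_4OHT also did not pass without any 1 EV_4OHT library (-0.777 to -0.722), nor that from EV without EV replicate 52 (-0.767). These groups were apart with all libraries, and leaving 1 out cannot change that. The lost passes do not by themselves show weaker differences.

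Among the mRNAs, 11 of 13 were called lower in each hairpin group and none higher, also at an unadjusted p under 0.05, in DESeq2 and in limma-voom. Over all tested genes, 6.98% were called in shAHCY_2, 3.07% lower and 3.91% higher, and 14.4% in shAHCY_4, 6.86% lower and 7.58% higher. The median log2 fold change of the 13 mRNAs was -0.38 in shAHCY_2 and -0.36 in shAHCY_4, against 0.01 over all tested genes in both.

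MT-ND1, MT-ND2 and MT-CO1, the first 3 mRNA genes along the heavy strand, fell the most in shAHCY_2. MT-ND1 was at 1201.5, 1279.4, 1323.8 and 1269.5 CPM in EV_4OHT, at 725.0, 703.1, 767.5 and 726.2 in shAHCY_2 and at 808.7, 648.2, 612.4 and 597.7 in shAHCY_4. Every hairpin library was below every EV_4OHT library, and the log2 changes were -0.80 ± 0.08 (edgeR adjusted p = 6.38e-07) and -0.93 ± 0.08 (4.53e-08). MT-CO1, the catalytic subunit of cytochrome c oxidase, was at 3110.9, 2838.1, 3032.8 and 2743.5 CPM in EV_4OHT. It was at 1771.6, 1854.0, 1696.8 and 1876.1 in shAHCY_2 and at 2009.6, 1875.7, 1611.0 and 1505.5 in shAHCY_4, with log2 changes of -0.70 ± 0.08 and -0.74 ± 0.08. MT-ND2 fell by 0.63 and 0.73 on the log2 scale (SE 0.07 for each).

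The remaining complex I mRNAs had log2 changes closer to 0 than MT-ND1 and MT-ND2 in shAHCY_2, whereas in shAHCY_4 MT-ND3 lay lowest of the mRNAs, within its SE of MT-ND1. MT-ND3 was at 306.1, 356.0, 330.1 and 328.4 CPM in EV_4OHT, at 190.9, 198.4, 296.2 and 222.8 in shAHCY_2 and at 224.6, 142.1, 146.6 and 162.6 in shAHCY_4. No hairpin library reached the EV_4OHT range, and the log2 changes were -0.54 ± 0.15 (edgeR adjusted p = 0.0268) and -0.97 ± 0.15 (8.51e-05). In shAHCY_2 that call was lost without any 1 of EV_4OHT replicates 54, 55 and 56 and shAHCY_2 replicates 57, 58 and 60 (-0.47 to -0.54). MT-ND6 fell by 0.55 and 0.53 (SE 0.06 for each), MT-ND5 by 0.42 and 0.37, and MT-ND4 by 0.33 and 0.21. MT-ND4L was at -0.26 ± 0.08 in shAHCY_2 (edgeR adjusted p = 0.0351) and at -0.22 ± 0.08 in shAHCY_4 (0.0557), so the second did not pass. The first was lost with only the 2 groups in the fit (-0.26) and without any 1 of the libraries of both groups other than shAHCY_2 replicate 59 (-0.22 to -0.28). The second passed in 7 of the alternative fits (-0.22 to -0.28).

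MT-CO2, another core subunit of cytochrome c oxidase, did not pass with either hairpin. It was at 3669.0, 4169.1, 3430.4 and 3754.1 CPM in EV_4OHT, at 3076.5, 3171.7, 3454.9 and 3338.8 in shAHCY_2 and at 3392.1, 3328.3, 3690.1 and 3560.9 in shAHCY_4. The groups overlap, with log2 changes of -0.20 ± 0.07 (95% interval -0.33 to -0.07; edgeR adjusted p = 0.0671) and -0.10 ± 0.07 (-0.24 to 0.03; 0.331). In shAHCY_2 it passed with the GC trend removed (-0.21) and without EV_4OHT replicate 55 (-0.24) or shAHCY_2 replicate 59 (-0.23). MT-CO3 fell by 0.30 and 0.36 (SE 0.06 for each).

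MT-CYB fell by 0.38 and 0.26 (SE 0.05 for each), and MT-ATP6 by 0.32 and 0.30 (SE 0.06 for each). MT-ATP8 was at -0.15 ± 0.07 in shAHCY_2 (edgeR adjusted p = 0.192) and fell by 0.23 ± 0.07 in shAHCY_4 (0.0243). The shAHCY_2 value passed with the GC trend removed (-0.26). The shAHCY_4 call was lost with library totals alone (-0.17), with no low-count filter (-0.24) and without any 1 of EV_4OHT replicates 54 and 55 and shAHCY_4 replicates 61 and 62 (-0.20 to -0.23).

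Both rRNAs fell with both hairpins. MT-RNR1 was at 1569.2, 1519.3, 1826.0 and 1652.9 CPM in shAHCY_2 and at 1712.6, 1327.8, 1201.6 and 1211.2 in shAHCY_4. All 8 libraries were below the 2393.4 to 2583.2 CPM of EV_4OHT, and the log2 changes were -0.59 ± 0.09 (edgeR adjusted p = 2.47e-04) and -0.86 ± 0.09 (1.13e-06). MT-RNR2 was at 23621.1, 21370.9, 27764.6 and 21258.0 CPM in shAHCY_2 and at 21600.1, 18476.0, 16923.4 and 16739.3 in shAHCY_4. These lay below every EV_4OHT and every EV library, and against EV_4OHT the log2 changes were -0.40 ± 0.08 (edgeR adjusted p = 0.0023) and -0.75 ± 0.08 (6.47e-07). The rRNA to mRNA ratio in shAHCY_2, 0.908 to 1.14, overlapped that of EV_4OHT (exact permutation p = 0.686, adjusted 0.686). In shAHCY_4 the ratio was 0.691 to 0.859, below every other library (exact permutation p = 0.0286, adjusted 0.0429, against each of the other groups). The difference from shAHCY_2 did not pass without shAHCY_2 replicate 57 or 59 (-0.233 and -0.192). MT-RNR2 made up 44.1 to 49.9% of mitochondrial counts in shAHCY_2 and 38.1 to 42.8% in shAHCY_4. With each hairpin the MT-RNR2 to MT-RNR1 ratio, 14.3 ± 1.08 and 13.6 ± 0.673, was below all EV libraries.

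**Figure D3:**
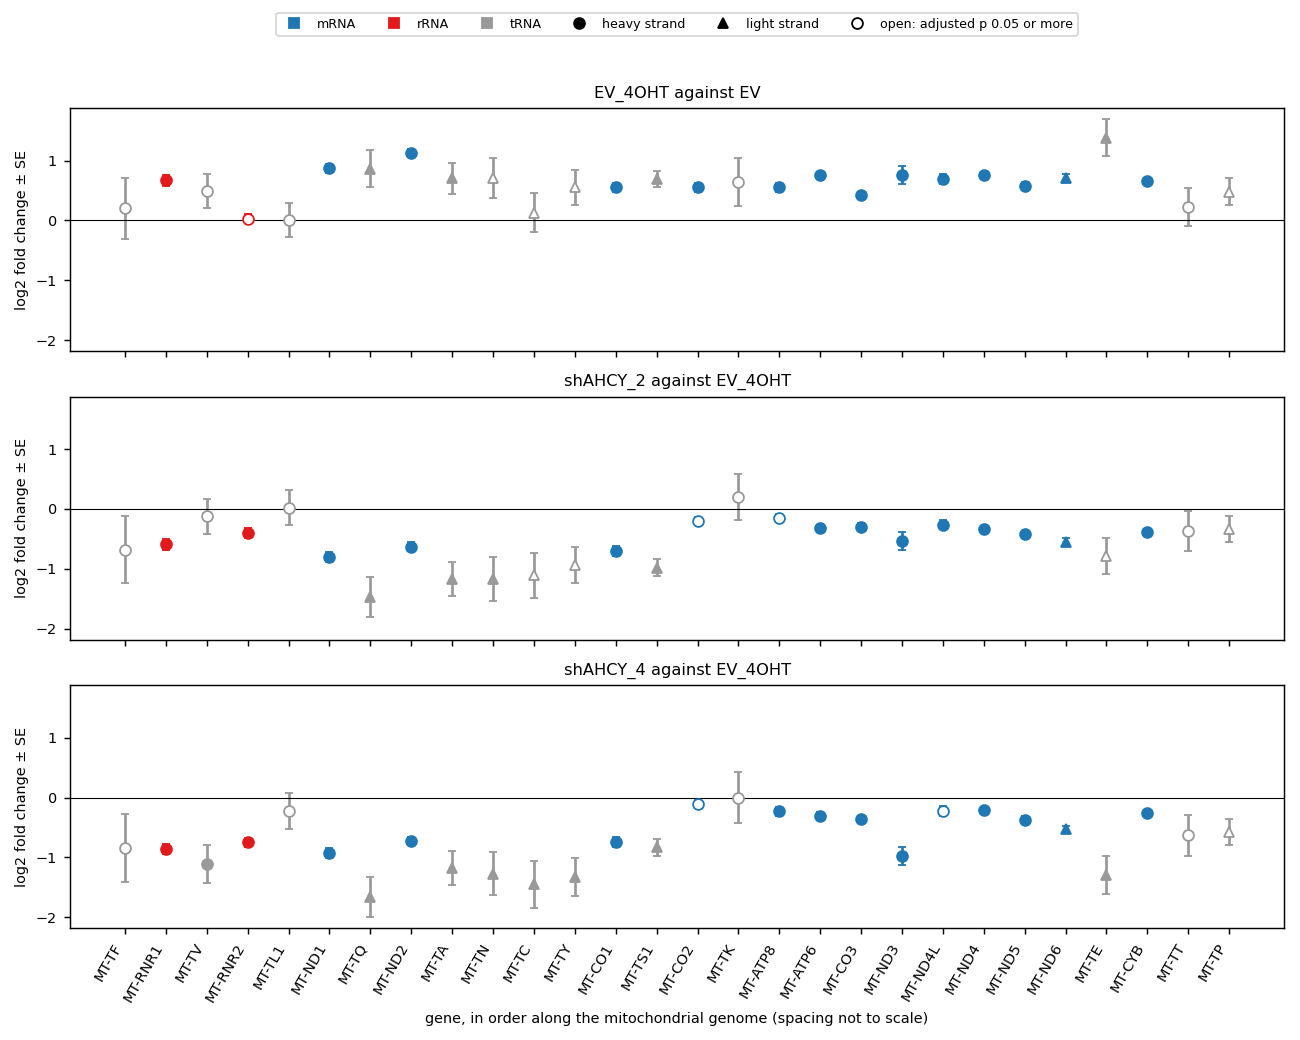
Log2 fold change ± SE (edgeR) of the 28 tested members in their order along the mitochondrial genome, for EV_4OHT against EV and for each hairpin group against EV_4OHT; colours mark the class, triangles the light strand, and open symbols an adjusted p of 0.05 or more. In the first panel all mRNAs lie between 0.42 and 1.13 and MT-RNR2 at 0.03; in both lower panels MT-TQ lies lowest, at -1.47 and -1.66.

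The falls in the hairpin groups differed along the heavy strand. The 5 rRNA and mRNA genes up to MT-CO1 had median log2 changes of -0.63 in shAHCY_2 and -0.75 in shAHCY_4, and the 9 mRNA genes after it -0.32 and -0.26. MT-ND3, at -0.54 and -0.97, was an exception among the later genes. Of the earlier genes, MT-RNR2, at -0.40 in shAHCY_2, lay within the range of the later genes there, -0.54 to -0.15. This division was chosen after the values were seen and was not tested. Over the 14 heavy-strand rRNA and mRNA genes, Spearman's rho between the log2 change and the order of the genes was 0.40 in shAHCY_2 and 0.49 in shAHCY_4. For EV_4OHT against EV it was 0.07. These genes share precursors and libraries, so the values are descriptions.

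Of the 8 light-strand tRNAs, 4 were called lower in shAHCY_2 and 7 in shAHCY_4, and of the 5 tested heavy-strand tRNAs none and 1. Together these are 30.8 and 61.5% of the 13 tested tRNAs, against 3.07 and 6.86% of all tested genes called lower. DESeq2 called 6 lower in shAHCY_2, and at an unadjusted p under 0.05 7 were. The tRNA share of counts was 0.00423, 0.00504, 0.00651 and 0.005% in shAHCY_2 and 0.00538, 0.00426, 0.00436 and 0.00496% in shAHCY_4. All of these lay below the lowest EV_4OHT library, 0.00731% (exact permutation p = 0.0286, adjusted 0.0429, for each hairpin). The shAHCY_2 difference no longer passed without its replicate 57 or any 1 EV_4OHT library (-0.00288 to -0.00237 points). Relative to the mRNAs, the tRNA counts were lower in shAHCY_4, at a ratio of 0.00181 ± 0.000177 against 0.00249 ± 0.000132 in EV_4OHT (exact permutation p = 0.0286, adjusted 0.0429). In shAHCY_2, at 0.00208 ± 0.000382, the difference did not pass (exact permutation p = 0.143, adjusted 0.171), but it did without shAHCY_2 replicate 59 (-0.000583, adjusted exact permutation p = 0.049). Without MT-TS1 the shAHCY_4 difference, -0.000466, no longer passed.

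MT-TQ had the largest fall. It was at 1.66, 5.03, 3.62 and 5.19 CPM in EV_4OHT, at 0.925, 1.43, 1.56 and 1.64 in shAHCY_2 and at 1.83, 0.797, 1.04 and 1.37 in shAHCY_4. Only shAHCY_4 replicate 61 reached into the EV_4OHT range, and the log2 changes were -1.47 ± 0.33 (edgeR adjusted p = 0.00778) and -1.66 ± 0.34 (0.00194). MT-TS1 was at 9.34, 14.4, 11.2 and 13.8 CPM in shAHCY_2 and at 13.8, 15.5, 13.4 and 11.8 in shAHCY_4. All were below the EV_4OHT range of 19.6 to 28.1, with log2 changes of -0.98 ± 0.14 (edgeR adjusted p = 7.08e-05) and -0.83 ± 0.14 (2.56e-04). MT-TS1 lies next to MT-CO1, whose mRNA fell by 0.70 and 0.74. MT-TA fell to 44.6% of its mean EV_4OHT level in shAHCY_2 and to 44.2% in shAHCY_4 (edgeR adjusted p = 0.0118 and 0.00659).

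MT-TQ, MT-TA, MT-TN, MT-TC and MT-TY lie in the stretch between MT-ND1 and MT-CO1. MT-TN, the asparagine tRNA, was at -1.17 ± 0.36 in shAHCY_2 (edgeR adjusted p = 0.0491) and -1.27 ± 0.36 in shAHCY_4 (0.0203). The first call was lost with only the 2 groups in the fit (-1.17) and without any 1 of the 4 EV_4OHT libraries (-0.93 to -1.31) or shAHCY_2 replicates 57 and 58 (-0.89 and -1.05). The second was lost without any 1 of EV_4OHT replicates 54 and 56 and shAHCY_4 replicates 62, 63 and 64 (-1.03 to -1.23).

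MT-TC and MT-TY, the cysteine and tyrosine tRNAs, did not pass in shAHCY_2 (-1.11 ± 0.37 and -0.93 ± 0.30; edgeR adjusted p = 0.0764 and 0.0681). Both fell in shAHCY_4 (-1.45 ± 0.39 and -1.33 ± 0.32), though MT-TC did not pass without EV_4OHT replicate 54 (-1.20). MT-TE was at 1.48, 1.22, 0.83 and 1.84 CPM in shAHCY_2 and at 0.731, 1.28, 0.814 and 0.98 in shAHCY_4, below the 2.12 to 2.58 CPM of EV_4OHT. Its log2 change did not pass in shAHCY_2 (-0.79 ± 0.30, edgeR adjusted p = 0.125) and did in shAHCY_4 (-1.29 ± 0.32, 0.00793). MT-TP, the proline tRNA and with MT-TS1 the most counted, was at -0.33 ± 0.22 and -0.57 ± 0.22, neither past the threshold.

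Of the heavy-strand tRNAs, MT-TV passed in shAHCY_4. MT-TV lies between the 2 rRNA genes, and in humans it is also a structural RNA of the mitochondrial ribosome's large subunit, beside MT-RNR2. It was at 2.16, 1.96, 2.01 and 2.48 CPM in EV_4OHT, at 2.87, 1.86, 1.66 and 1.57 in shAHCY_2 and at 1.10, 0.877, 0.888 and 1.11 in shAHCY_4. The shAHCY_2 libraries overlap EV_4OHT and the shAHCY_4 libraries lie below both, with log2 changes of -0.12 ± 0.29 and -1.11 ± 0.31 (edgeR adjusted p = 0.843 and 0.0189). The second call rests on 9 to 17 counts in each shAHCY_4 library and was lost without any 1 of EV_4OHT replicate 56 and shAHCY_4 replicates 62 and 63 (-1.04 to -1.07). MT-TL1, MT-TK, MT-TF and MT-TT, the tRNAs of leucine (UUR codons), lysine, phenylalanine and threonine, did not pass in either group, with values of -0.68 to 0.20 and -0.84 to 0.00.

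**Figure D4:**
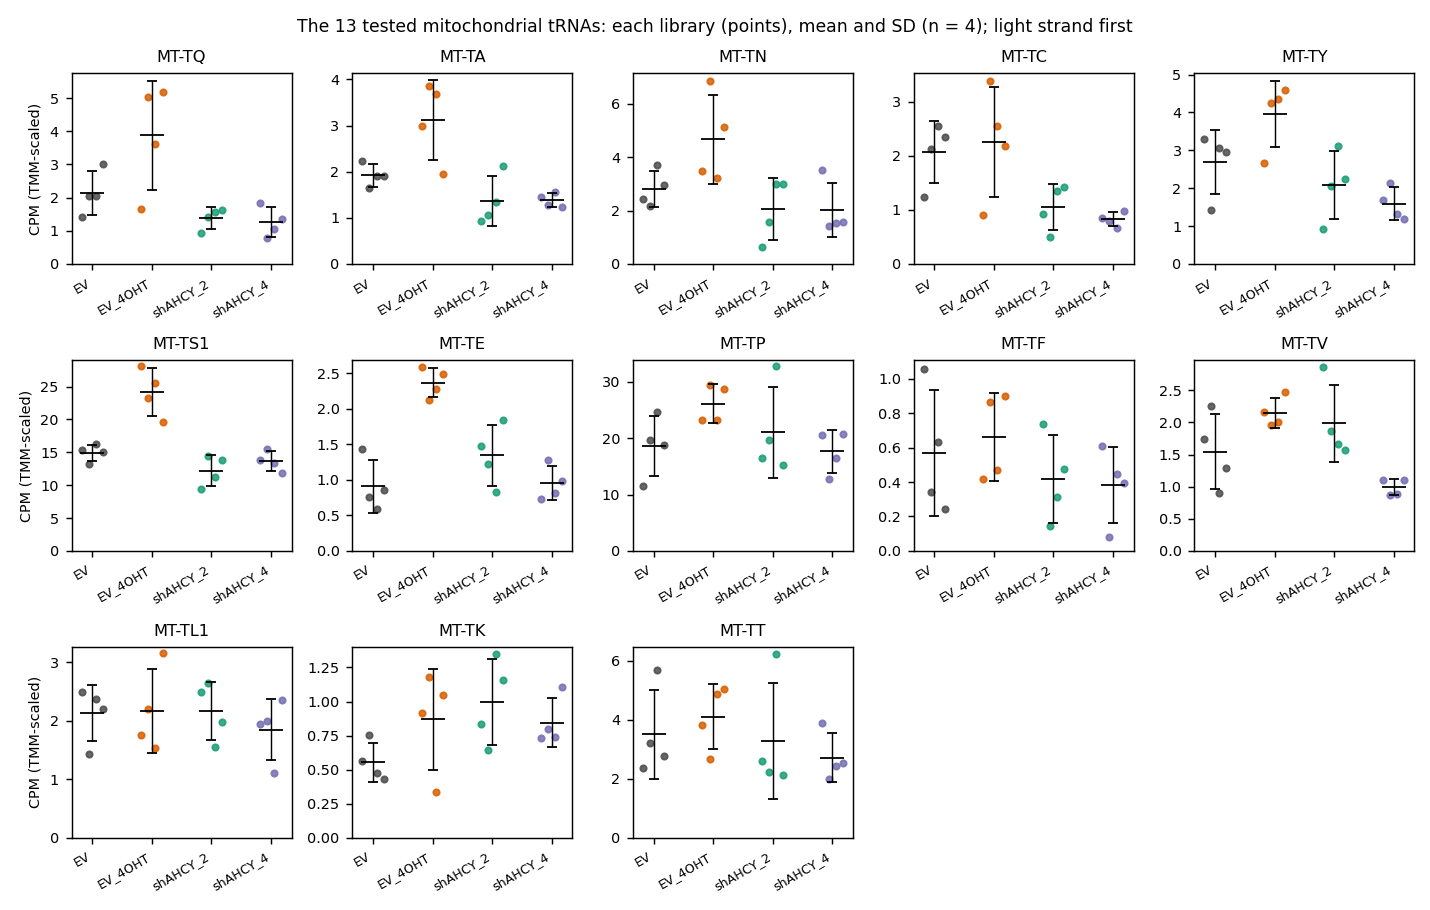
TMM-scaled CPM of the 13 tested tRNAs in each library (points) with the mean and SD (bars, n = 4), light-strand tRNAs first, on axes that start at 0. MT-TS1 lies at 19.6 to 28.1 CPM in EV_4OHT and at 9.34 to 15.5 in the hairpin groups; MT-TL1 shows overlapping groups throughout.

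The 9 tRNAs that were not tested, MT-TI, MT-TM, MT-TW, MT-TD, MT-TG, MT-TR, MT-TH, MT-TS2 and MT-TL2, are all on the heavy strand. Their totals over the 16 libraries ran from 22 counts for MT-TS2 to 53 for MT-TH. In the edgeR fit with no low-count filter none of them passed in any of the 6 comparisons, with a lowest adjusted p of 0.0943. That was MT-TR, the arginine tRNA, singled out after its values were seen, with 4, 2, 12 and 3 counts in EV and 1, 0, 1 and 1 in EV_4OHT. Its groups did not overlap in CPM, at 0.137 to 0.634 in EV and 0 to 0.0831 in EV_4OHT.

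Counts on MT-ND6, the single light-strand mRNA, changed slightly in proportion to the rest. The libraries keep no strand, so these counts can include MT-ND5 RNA from the opposite strand, and the ratio is not a measure of light-strand RNA alone. MT-ND6 was at 241.3, 223.7, 223.5 and 229.8 CPM in EV and at 373.4, 364.0, 386.4 and 380.4 in EV_4OHT. It was at 254.7, 250.5, 267.9 and 253.7 in shAHCY_2 and at 264.9, 262.7, 262.6 and 254.6 in shAHCY_4, so EV_4OHT stood above all other groups. The ratio of MT-ND6 to the heavy-strand mRNAs was 0.0103 ± 0.00013 in shAHCY_2 and 0.0101 ± 0.000185 in shAHCY_4, against 0.0116 ± 0.000546 in EV_4OHT (SD, n = 4). Both differences passed (exact permutation p = 0.0286, adjusted 0.0429, for each). Without any 1 library of the hairpin group concerned neither passed (-0.00135 to -0.00126 in shAHCY_2 and -0.00156 to -0.00141 in shAHCY_4). These groups did not overlap with all libraries, and leaving 1 out cannot change that. EV, at 0.0112 ± 0.000453, did not differ from EV_4OHT past the threshold (exact permutation p = 0.257, adjusted 0.299), although with MT-ND5 alone as the heavy-strand mRNA it did (0.0115).

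Between the 2 hairpin groups no mRNA was called in edgeR, DESeq2 or limma-voom, and at an unadjusted p under 0.05 2 were higher and 1 lower in shAHCY_4. Between shAHCY_4 and shAHCY_2, where 1.24% of tested genes were called, 0.702% lower and 0.54% higher, MT-RNR2 was the only member called, at -0.35 ± 0.08 (edgeR adjusted p = 0.03). Its libraries overlap, and the call was lost with only the 2 groups in the fit (-0.35) and without any 1 of shAHCY_2 replicates 57 and 59 and shAHCY_4 replicates 62, 63 and 64 (-0.27 to -0.36). The 95% intervals of the mRNA differences, MT-ND3 left out, reached from -0.29 for MT-ND1 to 0.23 for MT-CO2. For MT-ND3 the difference was -0.43 ± 0.15 (95% interval -0.72 to -0.14; edgeR adjusted p = 0.14). For MT-RNR1 it was -0.27 ± 0.09 (95% interval -0.45 to -0.08; edgeR adjusted p = 0.143). Both passed without shAHCY_4 replicate 61, at -0.59 and -0.40, and with no low-count filter, at -0.44 and -0.28. MT-ND4 and MT-CYB were higher in every shAHCY_4 library than in every shAHCY_2 library, each by 0.12 ± 0.05 (edgeR adjusted p = 0.17 and 0.202), and both passed with the GC trend removed (0.16 and 0.15). The shAHCY_4 libraries had a higher mRNA share by 0.126 percentage points and a lower rRNA to mRNA ratio by 0.24, each without overlap (exact permutation p = 0.0286, adjusted 0.0429). The first did not pass without any 1 of shAHCY_2 replicates 57, 58 and 59 (0.121 to 0.124), nor the second without replicate 57 or 59 (-0.233 and -0.192). The rRNA share, which did not differ past the threshold, passed without shAHCY_4 replicate 61 (-0.613 points). With TMM-scaled library sizes as the denominator the difference in mRNA share, 0.0918 points, did not pass.

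Set against non-senescent EV cells, the hairpin groups kept higher levels of most mRNAs and had lower MT-RNR2. In each hairpin group 9 of 13 mRNAs were higher than in EV, where 24.5% of tested genes were called higher in shAHCY_2 and 25.4% in shAHCY_4, of 48.1 and 51.2% called in either direction. These comparisons share the EV libraries with each other. MT-ND2 was higher by 0.50 ± 0.07 in shAHCY_2 and 0.40 ± 0.07 in shAHCY_4, MT-ND4 by 0.42 ± 0.05 and 0.54 ± 0.05, and MT-ATP6 by 0.43 ± 0.06 and 0.44 ± 0.06. MT-CO2, MT-ATP8, MT-ND4L, MT-CYB, MT-ND5 and MT-ND6 were also higher with both, the last at 0.16 ± 0.06 and 0.19 ± 0.06. MT-ND6 was no longer called with library totals alone (0.08 and 0.13), upper-quartile factors (0.12 and 0.14) or no low-count filter (0.18 and 0.19). In shAHCY_2 the MT-ND6 call also ended with only the 2 groups in the fit (0.17) and without any 1 of EV replicates 50 and 51 and the 4 shAHCY_2 libraries (0.13 to 0.15). The call of MT-ND5 in shAHCY_2, 0.17 ± 0.06, ended with library totals alone (0.09), upper-quartile factors (0.13), only the 2 groups in the fit (0.17) and without EV replicate 50 (0.13).

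MT-ND1, which had risen with 4OHT, lay at 0.08 ± 0.08 and -0.05 ± 0.08 against EV (95% intervals -0.08 to 0.24 and -0.21 to 0.10). MT-CO1 lay at -0.15 ± 0.08 and -0.19 ± 0.08, of which the second passed (edgeR adjusted p = 0.0399) and was lost in DESeq2 (-0.19) and with only the 2 groups in the fit (-0.19). Leaving out any 1 of EV replicates 49 and 52 and shAHCY_4 replicates 63 and 64 also ended it (-0.14 to -0.19). The shAHCY_2 value passed with upper-quartile factors (-0.19), library totals alone (-0.23), the GC trend removed (-0.17) and without EV replicate 51 (-0.20). MT-CO3 was at 0.12 ± 0.06 and 0.05 ± 0.06, the first passing without EV replicate 52 (0.17). MT-ND3 was at 0.22 ± 0.15 and -0.21 ± 0.15. Its shAHCY_2 value passed with no low-count filter (0.24), and its shAHCY_4 value without EV replicate 49 (-0.36) or shAHCY_4 replicate 61 (-0.37). MT-RNR2 was lower by 0.37 ± 0.08 and 0.72 ± 0.08 on the log2 scale (edgeR adjusted p = 4.79e-04 and 1.08e-07), where 23.6 and 25.8% of tested genes were called lower. MT-RNR1 was at 0.08 ± 0.09 and -0.19 ± 0.09, neither past the threshold. The second passed with upper-quartile factors (-0.24), library totals alone (-0.25) and without EV replicate 49 (-0.26) or shAHCY_4 replicate 61 (-0.32). Of the tRNAs, MT-TC was lower with both hairpins (-0.98 ± 0.37 and -1.31 ± 0.38) and MT-TY with shAHCY_4 (-0.78 ± 0.32). The MT-TC call in shAHCY_2 was lost without any 1 of EV replicates 50, 51 and 52 and shAHCY_2 replicates 57 and 58 (-0.75 to -0.99). That of MT-TY was lost with the GC trend removed (-0.70), in limma-voom (-0.76) and without any 1 of EV replicates 49, 51 and 52 and shAHCY_4 replicates 61, 63 and 64 (-0.66 to -0.81).

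Per kilobase of transcript, MT-RNR2 had the most counts of the rRNAs and mRNAs in every group, from 19941.7 ± 422.0 CPM per kb in EV_4OHT to 11824.7 ± 1442.9 in shAHCY_4 (SD, n = 4). The method primes on poly(A), which these RNAs may not offer equally, so the order of counts need not be that of RNA amounts. In EV the next were MT-ND4L (4294.2 ± 160.3), MT-CO2 (3743.3 ± 278.1) and MT-ND4 (3651.5 ± 142.2), the last 2 within their spread of each other. MT-ND6 was lowest in EV at 437.3 ± 15.9 CPM per kb, and MT-ND3 (563.9 ± 105.4) and MT-ND2 (604.1 ± 36.4) did not differ beyond their spread. In EV_4OHT MT-ND2 (1321.2 ± 23.7) did not differ from MT-ND1 (1326.9 ± 52.9) beyond their spread. MT-ND4L and MT-ND4, and MT-ATP8 and MT-ATP6, overlap on shared mRNAs, so the counting could have split or dropped reads between them. The MT-ND4L to MT-ND4 ratio was 0.254 ± 0.0161, 0.243 ± 0.0092, 0.255 ± 0.0365 and 0.241 ± 0.0207 in EV, EV_4OHT, shAHCY_2 and shAHCY_4, and shAHCY_2 replicate 59 alone was at 0.31.

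Copies of mitochondrial genes in the nuclear genome can take reads from the members. The table lists 379 genes named as such copies, of which 325 have no count in any library, and together they hold 0.67% of the number of counts on the members. The 3 with the most counts were MTATP6P1, MTND2P28 and MTND4P12. MTATP6P1 was at 181.6 ± 6.71, 323.3 ± 19.6, 244.4 ± 5.88 and 259.9 ± 7.76 CPM in EV, EV_4OHT, shAHCY_2 and shAHCY_4. Its log2 changes of 0.83, -0.40 and -0.32 in EV_4OHT against EV and each hairpin against EV_4OHT stand beside 0.75, -0.32 and -0.30 for MT-ATP6. MTND2P28, at 1.07, -0.61 and -0.77, stands beside MT-ND2 at 1.13, -0.63 and -0.73, and MTND4P12, at 0.98, -0.35 and -0.21, beside MT-ND4 at 0.75, -0.33 and -0.21. How reads that match both places were assigned is not given in the sources used here, so reads of a member and of its copy cannot be told apart.

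Nuclear genes for mitochondrial proteins moved with the members in EV_4OHT against EV. With the hairpins they moved far less when all lists are pooled, though subunits of complexes I to V, given below, were lower in shAHCY_4 more often. Of 258 tested genes on 13 lists, 137 were called higher and 14 lower in EV_4OHT, with a median log2 change of 0.25. These are 53.1 and 5.43% of the lists, against 26.7 and 26.8% of all tested genes. In shAHCY_2 8 were higher and 1 lower than in EV_4OHT (median 0.01), and in shAHCY_4 14 were higher and 18 lower (median -0.03). In the main fit the called shares of 3.49 and 12.4% lay below the 6.98 and 14.4% of all tested genes. The counts for single lists below stand against the same shares. The shAHCY_4 counts were 33 higher and 51 lower with only the 2 groups in the fit. With the GC trend removed they were 33 and 31. Those fits called 3136 of 12686 and 2871 of 13526 tested genes. In both, the called share of the lists lay above that of all tested genes, unlike in the main fit. Without any 1 of EV_4OHT replicates 54 and 56 and shAHCY_4 replicate 62, the counts were 18 or 19 in all. In shAHCY_2 they were 11 and 3 with the GC trend removed and 4 or 5 in all without any 1 of EV_4OHT replicates 53 to 56 and shAHCY_2 replicates 57 and 58.

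The nuclear-encoded subunits of complexes I to V are the partners of the mitochondrial mRNAs' products. Of 77 tested, 40 were higher and 2 lower in EV_4OHT (median 0.23). In shAHCY_2 none passed in edgeR, with a median of -0.06. At an unadjusted p under 0.05 4 were higher and 7 lower there, with 1 each way in DESeq2 and 0 in limma-voom. In shAHCY_4 2 were higher and 13 lower (median -0.18). These are 2.6 and 16.9%, against 7.58 and 6.86% of all tested genes. At an unadjusted p under 0.05 4 were higher and 32 lower there. By complex, 4 of 37 were lower in I, 0 of 4 in II, 1 of 8 in III, 5 of 11 in IV and 3 of 17 in V. The 2 higher were 1 each in I and III, and the median for complex IV was -0.30. UQCRH, the hinge protein of complex III, rose by 0.94 ± 0.11 in EV_4OHT and fell by 0.47 ± 0.11 in shAHCY_4. COX5A, a subunit of cytochrome c oxidase, rose by 0.63 ± 0.07 and fell by 0.38 ± 0.07. ATP5MC3, which encodes the rotor ring subunit of the ATP synthase, rose by 0.45 ± 0.06 and fell by 0.48 ± 0.06 (edgeR adjusted p = 1.79e-05). NDUFB9 of complex I rose by 0.66 ± 0.08 and fell by 0.27 ± 0.08. SDHB of complex II, which has no mitochondrially encoded subunit, rose by 0.69 ± 0.07 and was at -0.10 ± 0.07 and -0.07 ± 0.07 with the hairpins.

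The protein partners of the rRNAs are the mitochondrial ribosomal proteins. Of 79 tested, 49 were higher and 3 lower in EV_4OHT (median 0.34), among them MRPL36 (1.33 ± 0.08) and MRPL14 (1.03 ± 0.08). With shAHCY_2 and with shAHCY_4, 3 were higher and 1 lower (medians 0.04 and 0.00), while both rRNAs fell. MRPL14 was the one lower with shAHCY_2 (-0.27 ± 0.08, edgeR adjusted p = 0.0381). Of 19 tested aminoacyl-tRNA synthetases, which charge the tRNAs, 6 were higher and 2 lower in EV_4OHT (42.1% called, against 53.5% of all tested genes), 2 were higher in shAHCY_2, and 4 were higher and 1 lower in shAHCY_4. MARS2, for methionine, rose by 1.67 ± 0.12 in EV_4OHT (edgeR adjusted p = 7.11e-11) and was at -0.07 ± 0.11 and 0.16 ± 0.11 with the hairpins (0.779 and 0.379).

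Of 8 genes for transcription of mitochondrial DNA, 5 were higher and 1 lower in EV_4OHT, and none passed with either hairpin in edgeR, DESeq2 or limma-voom. At an unadjusted p under 0.05 2 were higher with shAHCY_2 and 1 with shAHCY_4. POLRMT, the mitochondrial RNA polymerase, was at 29.9 ± 3.14 CPM in EV and 48.0 ± 4.54 in EV_4OHT, a rise of 0.69 ± 0.11. With the hairpins it was at -0.15 ± 0.11 and 0.06 ± 0.11 (edgeR adjusted p = 0.427 and 0.757). TFB2M, an initiation factor, rose by 0.38 ± 0.11 in EV_4OHT, and TFAM, which packages the DNA and starts transcription, was at -0.28 ± 0.18 (edgeR adjusted p = 0.193). Of 14 genes for replication and maintenance, 7 were higher and 2 lower in EV_4OHT. The 2 lower were DNA2, a nuclease also active in the nucleus (-2.31 ± 0.21), and PRIMPOL, a primase and polymerase (-2.30 ± 0.22). DNA2 rose by 1.57 ± 0.22 and 1.34 ± 0.23 with the hairpins, the only gene of that list called in either.

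Among 22 genes for RNA processing, stability and decay, 11 were higher and 3 lower in EV_4OHT, 2 were higher in shAHCY_2 and 1 in shAHCY_4. SUPV3L1, the helicase of the RNA-degrading complex, rose by 0.78 ± 0.08 in EV_4OHT. LRPPRC and SLIRP, which together keep mitochondrial mRNAs stable, rose by 0.37 ± 0.07 and 0.47 ± 0.14. With the hairpins LRPPRC was at -0.05 ± 0.07 and 0.02 ± 0.07, and SLIRP at 0.07 ± 0.14 and -0.09 ± 0.14. TRMT10C rose by 0.67 ± 0.12 in EV_4OHT and was at 0.12 ± 0.12 and -0.03 ± 0.12 with the hairpins.

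Of 14 tested RNA methyltransferases and the S-adenosylmethionine carrier, 6 were higher in EV_4OHT and 3 in shAHCY_4. None passed in shAHCY_2 in edgeR, DESeq2 or limma-voom, and 3 were higher at an unadjusted p under 0.05. MRM3, which methylates the large rRNA, rose by 0.85 ± 0.11 in EV_4OHT and by a further 0.37 ± 0.11 in shAHCY_4 (edgeR adjusted p = 0.0247), where MT-RNR2 fell by 0.75. NSUN4, which methylates the small rRNA, rose by 0.67 ± 0.10 in EV_4OHT and was at -0.07 ± 0.10 in shAHCY_4. SLC25A26, the carrier that brings S-adenosylmethionine into mitochondria, was at 0.12 ± 0.12, -0.11 ± 0.12 and 0.00 ± 0.12 in the 3 comparisons, none past the threshold.

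Of 10 biogenesis regulators, 3 were higher and 1 lower in EV_4OHT, among them ESRRA (1.05 ± 0.20) and MYC (0.55 ± 0.09), where 53.5% of all tested genes were called and 26.7% higher, and none passed with the hairpins in edgeR, DESeq2 or limma-voom. At an unadjusted p under 0.05 1 was higher with shAHCY_2 and 2 with shAHCY_4. Of 16 genes for mitochondrial mass and import, 11 were higher in EV_4OHT. HSPA9, the import chaperone, rose by 0.73 ± 0.07 in EV_4OHT and was at -0.09 ± 0.07 and -0.02 ± 0.07 with the hairpins. VDAC1, the outer membrane channel, rose by 0.43 ± 0.06 in EV_4OHT and fell by 0.26 ± 0.06 in shAHCY_4, 1 of 3 genes of that list to do so. None of the list passed in shAHCY_2 in edgeR or limma-voom, with 1 lower in DESeq2 and 2 each way at an unadjusted p under 0.05. Long RNAs kept in the nucleus moved the other way from the mitochondrial mRNAs in EV_4OHT: 2 of 3 fell, MALAT1 by 1.14 ± 0.30 and KCNQ1OT1 by 0.52 ± 0.16, and their part in the result was not tested. With the hairpins none of the 3 passed in edgeR, DESeq2 or limma-voom or at an unadjusted p under 0.05, MALAT1 being at 0.25 ± 0.29 and -0.11 ± 0.29.

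**Figure D5:**
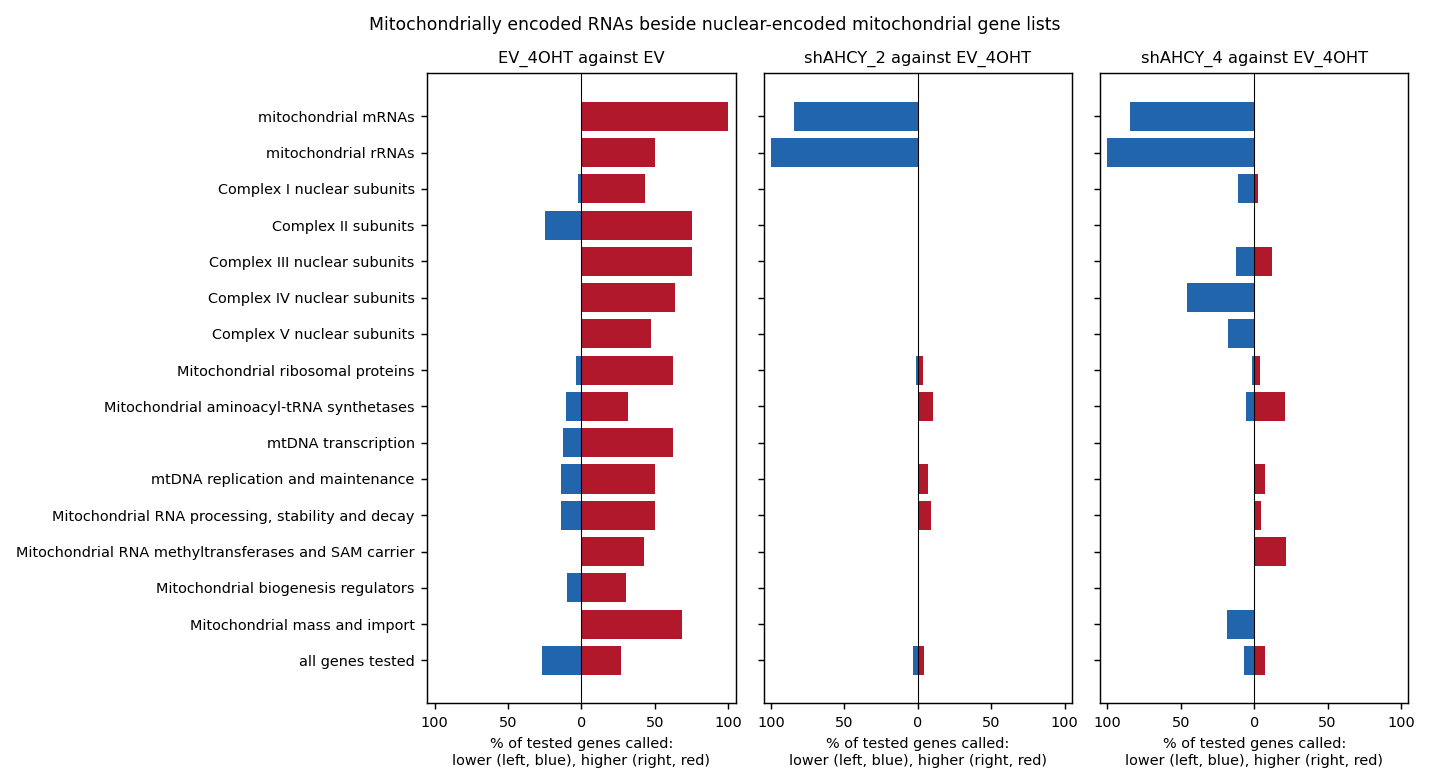
Percent of tested genes called higher (right, red) or lower (left, blue) by edgeR at an adjusted p under 0.05, for the mitochondrial mRNAs and rRNAs, for 13 lists of nuclear genes and for all tested genes, in 3 comparisons. In EV_4OHT against EV all 13 mRNAs and 137 of 258 nuclear genes are higher; with the hairpins 11 of 13 mRNAs are lower, against 1 and 18 of the 258.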

How the data were processed

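RNA was sequenced from 16 libraries in 4 groups of 4. The authors deposited raw whole-number counts per Ensembl gene, not normalized. Per the labels' protocols, total RNA went through Smart-Seq2, which primes on poly(A) and keeps no strand. Per the submitters' processing notes the tools were CASAVA 1.8.2, TopHat2 2.0.11 and featureCounts 1.18.0, on hg19 or GRCh37. Not given in the sources used here: annotation release, strand setting, and how multi-mapping or overlapping reads were counted. Of 62069 identifiers 50127 matched a symbol, and the rest held 0.503% of counts. GENCODE 29 is of another build, so no coordinates are given.

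Counts were fitted with edgeR 4.0.16 in R 4.3.3: filterByExpr, TMM factors, 1 quasi-likelihood model of all 16 libraries, 6 comparisons, adjusted over 13526 genes. SE is the absolute log2 change over the square root of F. The 95% intervals are built from that SE. The fit was tested on simulated data. Shares and ratios used two-sided exact permutation tests. Alternatives were 4 other scalings, 2 other filters, DESeq2 1.42.0, limma-voom (limma 3.58.1), GC trend removed, 2 groups alone, and leaving out each library.

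The members, the gene lists, the tests and the alternatives were chosen with earlier results of these data known. Named genes were all mitochondrial mRNAs and rRNAs and the tested tRNAs. Each nuclear list gave up to 3 genes with the smallest adjusted p in the first 3 comparisons, and 7 further genes and AHCY were fixed by name. A gene chosen by this rule is not reported here. In all 24 pairs of replicates the counts differed beyond sampling noise (chi-square over its degrees of freedom, 3.15 to 35.9), so none was treated as a duplicate. Totals of 8236199 to 18235787 counts limit the tRNAs most.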

Additional observations from a re-analysis of the deposited data

Results flagged for a closer look

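A library stood apart from the other 3 of its group in 6 of the 136 groups of 4 examined (its gap to the nearest of the others exceeded Dixon's critical share of the range). Chance flags about 1 in 20. Of these, 3 concern shAHCY_2 replicate 59, whose counts fell with GC content: MT-ND4L at 2029.8 CPM against 1568.4 to 1630.6, MT-ND4 at 6553.8 against 6764.2 to 6776.9, and MT-TT at 6.23 against 2.12 to 2.59. In shAHCY_4 replicate 61, the library with the fewest counts, MT-TN was at 3.53 CPM against 1.43 to 1.57, and MT-ATP6 at 1381.3 against 1263.1 to 1279.8. In EV_4OHT replicate 56 MT-RNR2 was at 32073.5 CPM against 30726.1 to 30825.9.

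The hairpin groups differed from each other, each by its own test, in MT-RNR2 (log2 change -0.35, shAHCY_4 against shAHCY_2), in the mitochondrial mRNA share of counts (0.126 percentage points higher in shAHCY_4) and in the rRNA to mRNA ratio (-0.24). The MT-RNR2 difference did not pass without any 1 of 5 libraries, that of the mRNA share without any 1 of shAHCY_2 replicates 57, 58 and 59, and that of the ratio without replicate 57 or 59.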

How the results depend on the processing

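No paired analysis was possible because the groups share no replicate number. In 5 of the 6 comparisons the number of members called stayed within 1.5 times its value under every alternative run, and no called rRNA, mRNA or tRNA changed sign. Between shAHCY_4 and shAHCY_2, with 1 member called, the count was 3 with no low-count filter, 3 with the GC trend removed, 0 with only the 2 groups in the fit, and 0 to 3 leaving out 1 library at a time. The calls of nuclear genes on the mitochondrial lists moved more. For shAHCY_2 against EV_4OHT they went from 9 to 14 with the GC trend removed and to 4 to 8 leaving out libraries. For shAHCY_4 against EV_4OHT they went from 32 to 64 with the GC trend removed, 84 with only the 2 groups, and 18 to 33 leaving out libraries. Between the hairpins they went from 1 to 18 with no filter, 4 with the GC trend removed, 3 in DESeq2, 0 with only the 2 groups, and 0 to 1 leaving out libraries. The exact tests of shares and ratios were run again without each library, all 36 adjusted anew. With 3 libraries against 4 their p was 0.0286 at the lowest, and 14 of the 24 differences that passed lost the pass without at least 1 library. All 24 were without overlap with all libraries, and leaving a library out cannot make such groups overlap, so their staying apart is no check. A lost pass does not by itself show a weaker difference. Their values leaving out 1 library were, for the mRNA share, -0.685 to -0.653 (shAHCY_2 against EV_4OHT), 0.3 to 0.35 (shAHCY_2 against EV) and 0.0958 to 0.145 (between the hairpins). For the rRNA share they were -0.871 to -0.688 and -0.968 to -0.767 (shAHCY_2 against EV_4OHT and EV), and for the tRNA share 0.0018 to 0.00241 (EV_4OHT against EV) and -0.00313 to -0.00237 (shAHCY_2 against EV_4OHT). For the rRNA to mRNA ratio they were -0.587 to -0.51 (shAHCY_2 against EV) and -0.274 to -0.192 (between the hairpins), and for the tRNA to mRNA ratio -0.00101 to -0.000686 (shAHCY_4 against EV). For the light-strand to heavy-strand ratio they were -0.00156 to -0.00114 and -0.00174 to -0.00132 (shAHCY_2 and shAHCY_4 against EV_4OHT), and -0.00104 to -0.000674 and -0.00123 to -0.000858 (against EV). The 2 differences that passed only without a library were the rRNA share between the hairpins (-0.613 to -0.382) and the tRNA to mRNA ratio of shAHCY_2 against EV_4OHT (-0.000583 to -0.00028). The rRNA to mRNA ratio of shAHCY_2 against EV_4OHT, which never passed, ran from -0.0742 to 0.00303.

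With TMM-scaled library sizes the mRNA share difference between the hairpins was 0.0918 points and did not pass, and the rRNA share difference of EV_4OHT from EV was 0.157 instead of -0.097. Without MT-TS1 the tRNA to mRNA ratio of shAHCY_4 against EV_4OHT differed by -0.000466 and did not pass. With MT-ND5 alone as heavy-strand mRNA, the light-strand to heavy-strand ratio passed for EV_4OHT against EV (0.0115) and no longer for shAHCY_2 (-0.000619) and shAHCY_4 (-0.00233) against EV. Uncalled genes near 0 that changed sign were MT-RNR2 in EV_4OHT against EV (-0.0096 with upper-quartile factors, -0.08 with library totals alone, -0.02 to 0.07 leaving out libraries), MT-CO1 (-0.11 to 0.03 leaving out libraries), MT-ATP8 (0.01 with the GC trend removed), MT-ATP6 (-0.01 to 0.06 leaving out libraries) and MT-ND4L (-0.01 to 0.13 likewise) between the hairpins, MT-RNR1 in shAHCY_2 against EV (-0.0015 with library totals alone), and MT-CO3 in shAHCY_4 against EV (-0.0025 with library totals alone, -0.002 to 0.11 leaving out libraries). The causes of these changes were not tested.

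Over all genes, called counts moved by over 1.5 times for shAHCY_4 against EV_4OHT (3136 with only the 2 groups, against 1953) and between the hairpins (481 in DESeq2, 620 with the GC trend removed, 553 with no filter and 78 with only the 2 groups, against 168; 69 to 155 leaving out libraries). Library totals alone moved the median log2 change of all genes to -0.128 in EV_4OHT against EV, where 38.2% of calls were higher instead of 49.9%. They raised that share from 56 to 69.8% for shAHCY_2 and from 52.5 to 67.4% for shAHCY_4 against EV_4OHT. Between the hairpins it was 43.5%, 61.1% with the GC trend removed and 22.2% with no filter.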
